A study of Mus musculus with 8 samples.

Results

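Cytochrome P450 genes, 91 of the 21631 protein-coding mouse genes on autosomes and the X chromosome, were examined for peaks of Mta2, Mbd3 and Zbtb7a in kidney cortex. They were taken from RefSeq (GRCm38.p6) by symbol, as Cyp followed by a number, letters and an optional number, without Cyp24a1 and Cyp27b1. The 91 genes fall into 37 subfamilies, of which 27 have 1 member, and lie on 13 chromosomes. A gene was counted for a factor where at least 1 peak summit of that factor's list lay in the gene or within 1 kb of either end.

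P450 enzymes are haem proteins that insert oxygen into their substrates with electrons from a partner such as the reductase Por or, in mitochondria, the ferredoxin Fdx1. The Cyp1, Cyp2 and Cyp3 families oxidise drugs, toxins and steroids, while many Cyp2c, Cyp2j and Cyp4 enzymes act on arachidonic acid and other fatty acids. In the kidney these last products, epoxides and hydroxylated fatty acids, act on vessel tone and salt transport, and the proximal tubule is the main site of P450 expression. Members of one subfamily often stand side by side as products of gene duplication.

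Chromatin immunoprecipitation with sequencing was done on kidney cortex of 2-month-old mice of genotype Mta2flx/flx, in 4 groups (Input, Mta2, Mbd3 and Zbtb7a) of 2 biological replicates, 8 libraries in all. The flanked allele was shared by every group, and the labels of these samples name no Cre driver. Sample titles of all 4 groups carry 1 shared pair of numbers. Mta2 and Mbd3 belong to the nucleosome remodelling and deacetylase complex NuRD, which removes acetyl groups from histones and moves nucleosomes. Zbtb7a binds DNA through zinc fingers. The study asked where these proteins sit on chromatin relative to Input. The authors deposited 1 peak list per factor for both mice. The labels give a depth of 100 M reads, sequenced in pairs, and the lists carry no depth of their own. On autosomes and the X chromosome the Mta2 list held 149855 peaks, the Mbd3 list 134248 and the Zbtb7a list 124616. No value per mouse exists in these lists, so the spread between mice is unknown and no value has an SD or a test. The fold printed for each peak is the authors' own enrichment over background and was compared within a list only. The tissue was whole cortex, so a peak cannot be assigned to a cell type, and few cells with strong binding and many with weak binding cannot be told apart. A gene without a summit was below the authors' threshold, which does not show that the protein was absent.

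A smaller share of P450 genes than of all protein-coding genes held summits, and the folds of those summits were lower at the median. A Mta2 summit was present at 61 of 91 members (67.0%), against 77.7% of all protein-coding genes. For Mbd3 the count was 59 (64.8%), against 76.5% of all genes. For Zbtb7a it was 57 (62.6%), against 76.0%. The same order held near gene ends, where 50, 48 and 45 members had a Mta2, Mbd3 and Zbtb7a summit within 1 kb (54.9%, 52.7% and 49.5%), against 67.2%, 65.5% and 65.6% of all genes. Most members were either in all 3 lists or in none. There were 56 members with all 3 factors (61.5%; all genes 74.7%), 28 with none (30.8%; all genes 21.2%) and 7 with 1 or 2 factors (7.69%; all genes 4.11%). Gene length did not separate the first groups, as the median was 22.04 kb for members in all 3 lists and 22.7 kb for members in none.

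The highest fold at a member was compared with that of all genes that had a summit. Over members with a summit the medians were 10.7 (Mta2), 9.66 (Mbd3) and 9.42 (Zbtb7a), and over all such genes 16.8, 15.4 and 16.2. The median member ranked at percentile 25.3, 25.9 and 25.5 of those genes. A fold of at least 20 was reached by 11 members for Mta2, 5 for Mbd3 and 5 for Zbtb7a, which is 18.0%, 8.47% and 8.77% of the members with a summit, against 38.1%, 33.3% and 38.4% of all genes with one. Per 100 kb of gene and flanks, the members held 5.57 Mta2, 5.35 Mbd3 and 4.91 Zbtb7a summits, against 8.87, 8.05 and 7.59 over the spans of all protein-coding genes. Almost every one of these summits belonged to P450 genes alone, since 1 of 150 Mta2, 1 of 144 Mbd3 and 2 of 132 Zbtb7a summits also lay at another protein-coding gene.

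**Figure D1:**
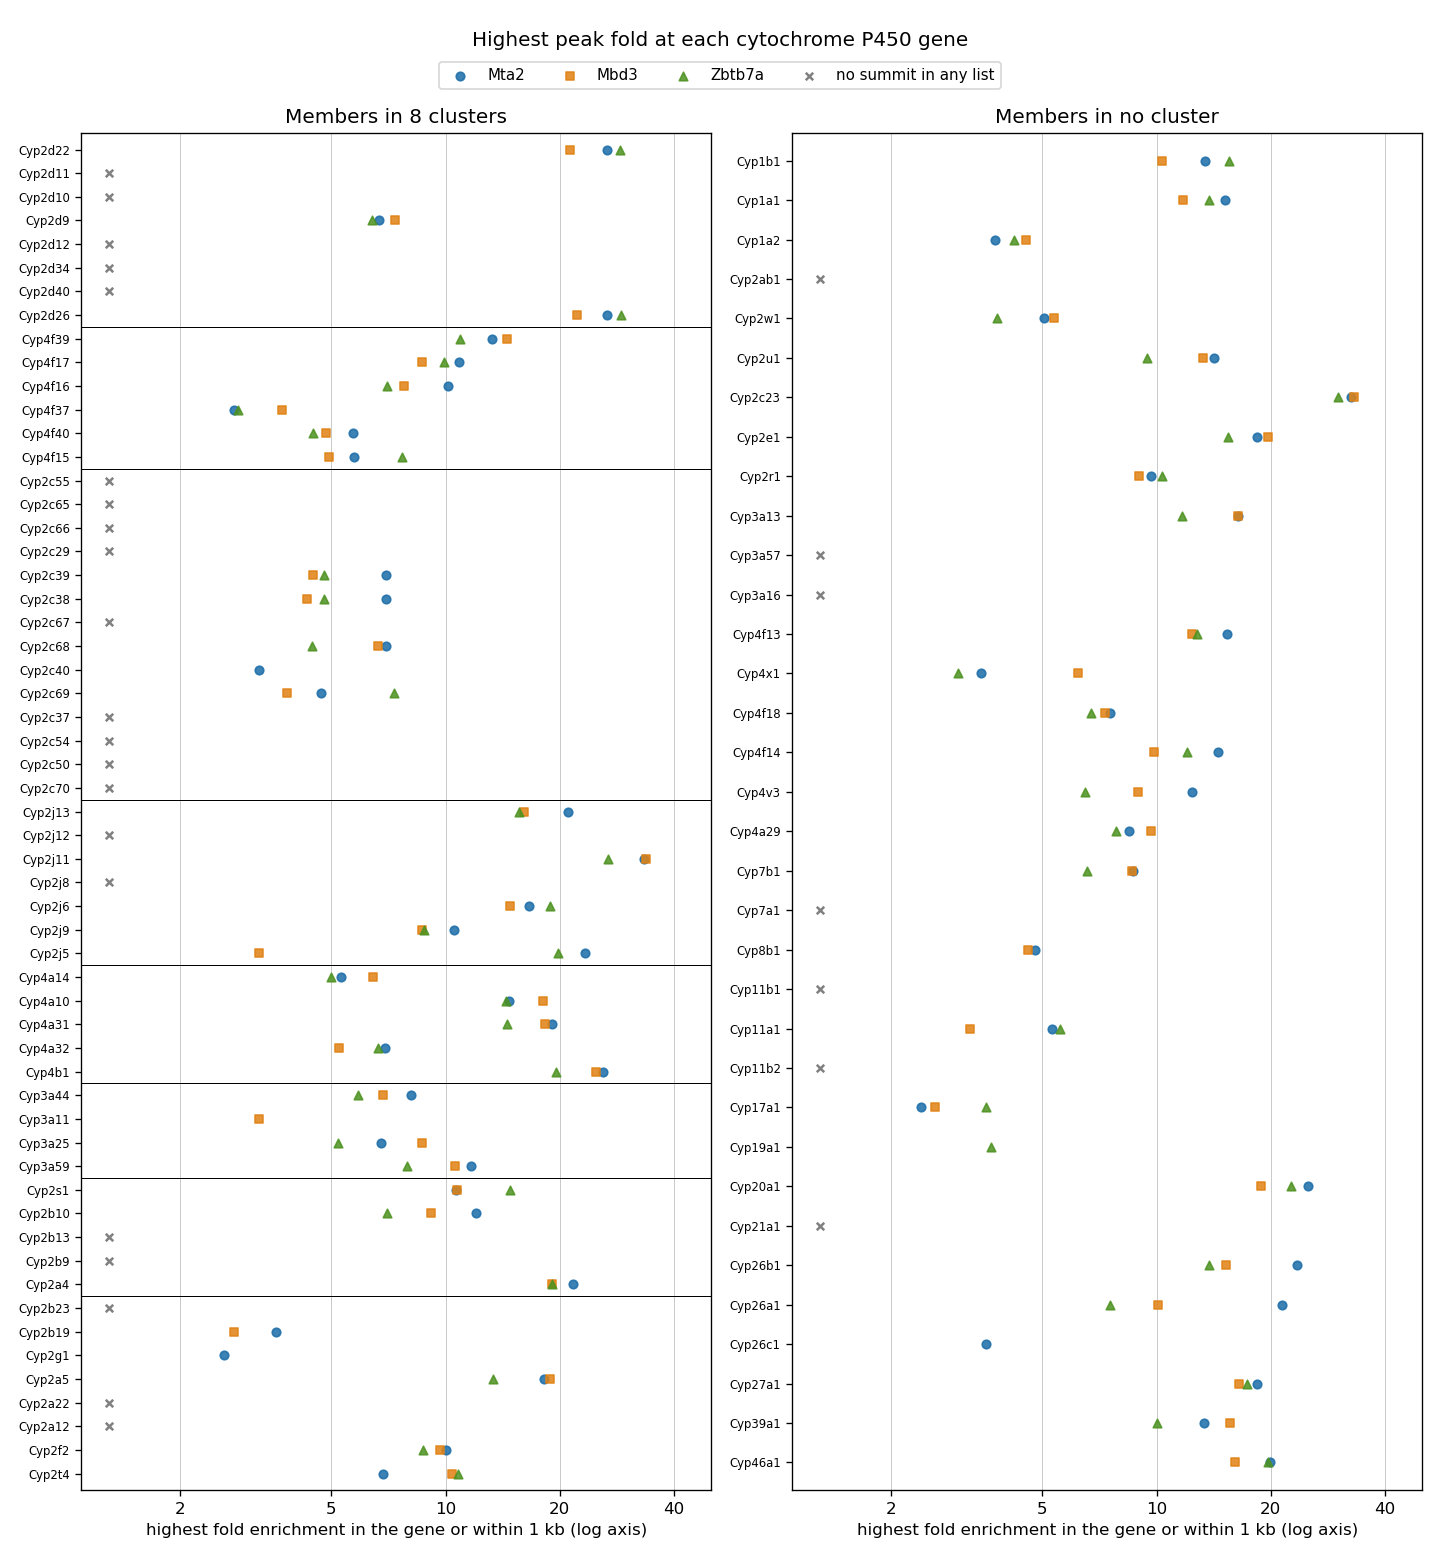
Highest fold enrichment in each of the 91 P450 genes or within 1 kb, on a log axis, with 57 members of 8 clusters on the left in chromosomal order and 34 other members on the right; circles, squares and triangles stand for Mta2, Mbd3 and Zbtb7a, and crosses mark the 28 members without a summit. The symbols of one gene mostly sit together, and the crosses gather in the Cyp2c and Cyp2d clusters.

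Upstream sequences of 8 members are given as examples of P450 promoters, and they recur below. Each is the stretch of 250 bases before a RefSeq start (GRCm38.p6), 5′ to 3′ on the strand of the gene, with CpG in capitals. The highest fold of a member need not lie in its printed stretch. Cyp20a1 (chr1:60343050-60343299, plus strand) and Cyp1b1 (chr17:79715062-79715311, minus strand) stand for the few members rich in CpG.
Cyp20a1: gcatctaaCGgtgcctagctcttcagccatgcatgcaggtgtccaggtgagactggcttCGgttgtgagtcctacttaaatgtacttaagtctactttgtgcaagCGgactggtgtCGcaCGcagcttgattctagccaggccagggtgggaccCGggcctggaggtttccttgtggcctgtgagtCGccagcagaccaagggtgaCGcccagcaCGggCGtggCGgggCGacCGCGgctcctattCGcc
Cyp1b1: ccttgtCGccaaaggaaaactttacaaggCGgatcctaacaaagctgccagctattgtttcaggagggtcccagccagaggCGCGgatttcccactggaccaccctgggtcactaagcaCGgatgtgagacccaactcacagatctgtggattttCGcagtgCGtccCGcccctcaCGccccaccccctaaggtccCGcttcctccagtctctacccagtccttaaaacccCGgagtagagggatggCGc
Cyp2e1 (chr7:140763569-140763818, plus) had summits of all 3 factors within a stretch that holds 2 CpG.
Cyp2e1: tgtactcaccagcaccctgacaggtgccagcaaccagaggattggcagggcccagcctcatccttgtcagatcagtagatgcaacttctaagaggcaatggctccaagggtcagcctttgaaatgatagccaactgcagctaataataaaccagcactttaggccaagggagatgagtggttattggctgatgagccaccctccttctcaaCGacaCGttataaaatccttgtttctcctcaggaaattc
Cyp2a4 (chr7:26306942-26307191, plus) and Cyp2a5 (chr7:26835089-26835338, plus) are near copies of each other, and both had summits of all 3 factors here.
Cyp2a4: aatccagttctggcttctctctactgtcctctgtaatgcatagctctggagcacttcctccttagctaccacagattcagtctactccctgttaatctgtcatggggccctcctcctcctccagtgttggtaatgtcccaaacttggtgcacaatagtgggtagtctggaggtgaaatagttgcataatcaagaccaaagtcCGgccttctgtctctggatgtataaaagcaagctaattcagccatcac
Cyp2a5: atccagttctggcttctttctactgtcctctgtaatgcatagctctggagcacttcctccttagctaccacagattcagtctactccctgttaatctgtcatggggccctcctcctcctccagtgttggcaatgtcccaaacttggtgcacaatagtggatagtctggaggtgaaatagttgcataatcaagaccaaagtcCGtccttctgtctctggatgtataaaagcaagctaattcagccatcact
Cyp2d9 (chr15:82452127-82452376, plus) and Cyp2d11 (chr15:82394023-82394272, minus) are less close copies, and only Cyp2d9 had summits.
Cyp2d9: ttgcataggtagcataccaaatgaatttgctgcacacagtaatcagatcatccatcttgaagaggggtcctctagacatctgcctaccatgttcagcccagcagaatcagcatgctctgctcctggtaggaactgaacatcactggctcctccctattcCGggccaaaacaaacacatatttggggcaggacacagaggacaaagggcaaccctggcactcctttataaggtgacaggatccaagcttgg
Cyp2d11: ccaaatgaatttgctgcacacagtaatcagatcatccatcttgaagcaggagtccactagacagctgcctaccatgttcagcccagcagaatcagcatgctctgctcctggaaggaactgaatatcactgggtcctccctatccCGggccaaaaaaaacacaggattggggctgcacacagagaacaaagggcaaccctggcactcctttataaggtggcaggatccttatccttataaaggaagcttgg
Cyp2c37 (chr19:39992174-39992423, plus) stands for the Cyp2c genes without a summit.
Cyp2c37: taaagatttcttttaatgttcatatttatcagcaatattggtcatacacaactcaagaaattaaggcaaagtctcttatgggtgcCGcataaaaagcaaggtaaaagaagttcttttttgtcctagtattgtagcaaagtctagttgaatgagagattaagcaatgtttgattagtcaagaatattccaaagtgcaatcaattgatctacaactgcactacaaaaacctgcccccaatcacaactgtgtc

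Among the fatty acid and arachidonic acid oxidases, 28 of 40 members (70.0%) were in all 3 lists, against 74.7% of all genes. In none were 11 of them (27.5%), against 21.2% of all genes, and the subfamilies lay far apart. Cyp2j11 had the highest Mta2 and Mbd3 folds of any member, 33.2 for Mta2, 33.7 for Mbd3 and 26.8 for Zbtb7a, in a peak inside the gene (Mta2, chr4:96329910-96331787) with its summit 17843 bp from the 5′ end. It is a member of the epoxygenase and hydroxylase subfamily Cyp2j. Further summits lay at the 5′ end itself, 38, 29 and 42 bp upstream, with folds of 19.5, 16.9 and 18.9. The Mta2 value ranked at percentile 90.1 of all genes with a summit.

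Cyp2c23, also known as Cyp2c44 and the principal arachidonic acid epoxygenase of mouse kidney, had folds of 32.6 (Mta2), 33.0 (Mbd3) and 30.0 (Zbtb7a), next after Cyp2j11 for Mta2 and Mbd3 and the highest of any member for Zbtb7a. This peak (Mta2, chr19:44021107-44022100) was inside the gene, 16734 bp from its end of lower coordinate. Cyp2c23 lies away from the other Cyp2c genes. In its gene span 6 Mta2, 7 Mbd3 and 7 Zbtb7a summits were called. None of the strongest summits of these first genes was at a gene end.

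Cyp4b1, a fatty acid hydroxylase that also activates furan toxins, had folds of 25.9, 24.9 and 19.6 in Mta2, Mbd3 and Zbtb7a, with the strongest summits 4189, 4159 and 4195 bp from the 5′ end. Cyp2j13 had 21.1, 16.1 and 15.6, again inside the gene. Cyp2j6 had 16.6, 14.8 and 18.8, and Cyp2j9 had 10.5, 8.66 and 8.76, each with a summit within 1 kb of a RefSeq start. Cyp2j8 and Cyp2j12 had no summit in any list. This leaves 5 of 7 Cyp2j genes (71.4%) with all 3 factors, near the share of all genes (74.7%).

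Cyp2j5, an abundant renal epoxygenase, shows where placing peaks by their summits matters. Its Mta2 fold was 23.2 in a peak over the 5′ end (chr4:96663808-96665892) with the summit 44 bp upstream, and its Zbtb7a fold was 19.8, with the summit 20 bp downstream. For Mbd3 the highest counted fold was 3.22. A Mbd3 peak of fold 25.4 (chr4:96663718-96665563) covered the same 5′ end, but its summit lay 1062 bp outside the gene, beyond the 1 kb allowed. Mbd3 enrichment was thus called over the Cyp2j5 start, and the low value follows from the position of the summit.

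Every member of Cyp4a (5 of 5) and Cyp4f (9 of 9) was in all 3 lists, against 74.7% of all genes. The Cyp4a enzymes hydroxylate the end of fatty acid chains, and several are targets of Ppara. Cyp4a31 had folds of 19.1 (Mta2), 18.3 (Mbd3) and 14.5 (Zbtb7a), with the Mta2 summit 2 bp outside its end of lower coordinate. Cyp4a10 had 14.7, 18.1 and 14.4, also at that end, within 68 bp outside the gene in each list. Cyp4a29, Cyp4a32 and Cyp4a14 were lower, with Mta2 folds of 8.47, 6.91 and 5.32. Cyp4a14, a well-known Ppara target, had 1 summit per factor, near its end of higher coordinate, with folds of 6.44 for Mbd3 and 5.00 for Zbtb7a.

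The Cyp4f enzymes hydroxylate leukotrienes and long fatty acids. Their Mta2 folds ran from 2.78 at Cyp4f37 to 15.3 at Cyp4f13, with a median of 10.1, and the medians were 7.80 for Mbd3 and 7.67 for Zbtb7a. Cyp4f14, a leukotriene hydroxylase, had 14.5, 9.87 and 12.01. Cyp4f39, whose human counterpart makes skin ceramide lipids, had 13.2, 14.5 and 10.9. Thus the subfamily was complete in its summits and moderate in their height. Of the single members, Cyp2u1 had 14.2, 13.3 and 9.42, Cyp4v3 had 12.4, 8.93 and 6.47, and Cyp4x1 had 3.44, 6.21 and 3.002.

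The Cyp2c subfamily was the opposite case. Of 15 members, 5 were in all 3 lists and 9 in none, and apart from Cyp2c23 no Cyp2c gene had a Mta2 fold above 6.99. That value belonged to Cyp2c38, Cyp2c39 and Cyp2c68. For Cyp2c38 and Cyp2c39 it is a single peak (chr19:39462909-39463349), because RefSeq places Cyp2c38 wholly within the span of Cyp2c39. It lies 34 bp upstream of the 5′ end of Cyp2c38. Cyp2c69 had 4.69, 3.83 and 7.34, with these summits 45030, 45025 and 20414 bp from the 5′ end. Cyp2c40 had 1 Mta2 summit of fold 3.23 and none of the other factors. The 9 without a summit were Cyp2c29, Cyp2c37, Cyp2c50, Cyp2c54, Cyp2c55, Cyp2c65, Cyp2c66, Cyp2c67 and Cyp2c70, most of which are known as liver or intestine genes.

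Of the 33 members that oxidise drugs, toxins and mixed substrates, 18 (54.5%) were in all 3 lists and 12 (36.4%) in none. Over all genes these shares were 74.7% and 21.2%. The Cyp2d genes were divided. Cyp2d22 had folds of 26.6 (Mta2), 21.3 (Mbd3) and 28.9 (Zbtb7a) at its end of higher coordinate. Cyp2d26 had 26.6, 22.2 and 28.9, with summits 83, 122 and 140 bp upstream of the gene's 5′ end. They are the first and the last gene of the cluster. Between them, Cyp2d9, a steroid hydroxylase known from male liver, had 6.68, 7.35 and 6.39, and Cyp2d10, Cyp2d11, Cyp2d12, Cyp2d34 and Cyp2d40 had no summit.

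In Cyp2a, Cyp2a4 and Cyp2a5 were in all 3 lists, and Cyp2a12 and Cyp2a22 were in none. Cyp2a4, a testosterone hydroxylase, had 21.7, 19.03 and 19.01, with the strongest summits 4839, 4826 and 4864 bp inside the gene, and weaker ones in the printed promoter, 144, 137 and 111 bp upstream (folds 11.8, 10.2 and 10.6). Cyp2a5, a coumarin hydroxylase, had its strongest summits in the promoter, 69, 60 and 125 bp upstream, with folds of 18.2, 18.9 and 13.3. At 4577 bp into Cyp2a5 the Mta2 fold was 2.92. The pair therefore differed in where the highest fold was found, although their promoters are 97.7% identical.

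Cyp2e1, an ethanol and acetone oxidase, had folds of 18.4, 19.6 and 15.4, with summits 180, 187 and 189 bp upstream of its start, inside the printed sequence. The dioxin-responsive Cyp1a1 had 15.1, 11.7 and 13.8, with these summits 565, 8719 and 8718 bp from the gene's 5′ end. Beside the last 2 lay a further Mta2 summit, of fold 12.8. The Mta2, Mbd3 and Zbtb7a summits there were at -976, -966 and -967 bp, upstream of a RefSeq start inside Cyp1a1. Its neighbour Cyp1a2, mainly known from liver, had 3.75, 4.53 and 4.23. Cyp1b1 had 13.4, 10.3 and 15.5, with summits 699, 726 and 765 bp upstream and so beyond the printed stretch. The summits of the 3 factors thus lay close together at Cyp2e1, at Cyp1b1 and at the site inside Cyp1a1.

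In Cyp3a, 4 of 7 members were in all 3 lists. Cyp3a13, a form expressed outside the liver as well, had 16.4, 16.4 and 11.7. Cyp3a59 had 11.7, 10.6 and 7.90, Cyp3a44 had 8.14, 6.85 and 5.89, and Cyp3a25 had 6.78, 8.66 and 5.23. Cyp3a11, a main drug oxidase of mouse liver, had a single Mbd3 summit of fold 3.22 and none of Mta2 or Zbtb7a. Cyp3a16 and Cyp3a57 had none. In Cyp2b, 1 of 5 was in all 3 lists, Cyp2b10, the classic target of the receptor Nr1i3, with 11.99, 9.16 and 7.01. Its strongest summit was inside the gene, and at the promoter the folds were 3.75, 2.92 and 3.67. Cyp2s1 (10.7, 10.7 and 14.7), Cyp2f2 (10.0, 9.66 and 8.74), Cyp2t4 (6.83, 10.4 and 10.8) and Cyp2w1 (5.07, 5.38 and 3.81) were in all 3 lists at moderate or low fold.

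**Figure D2:**
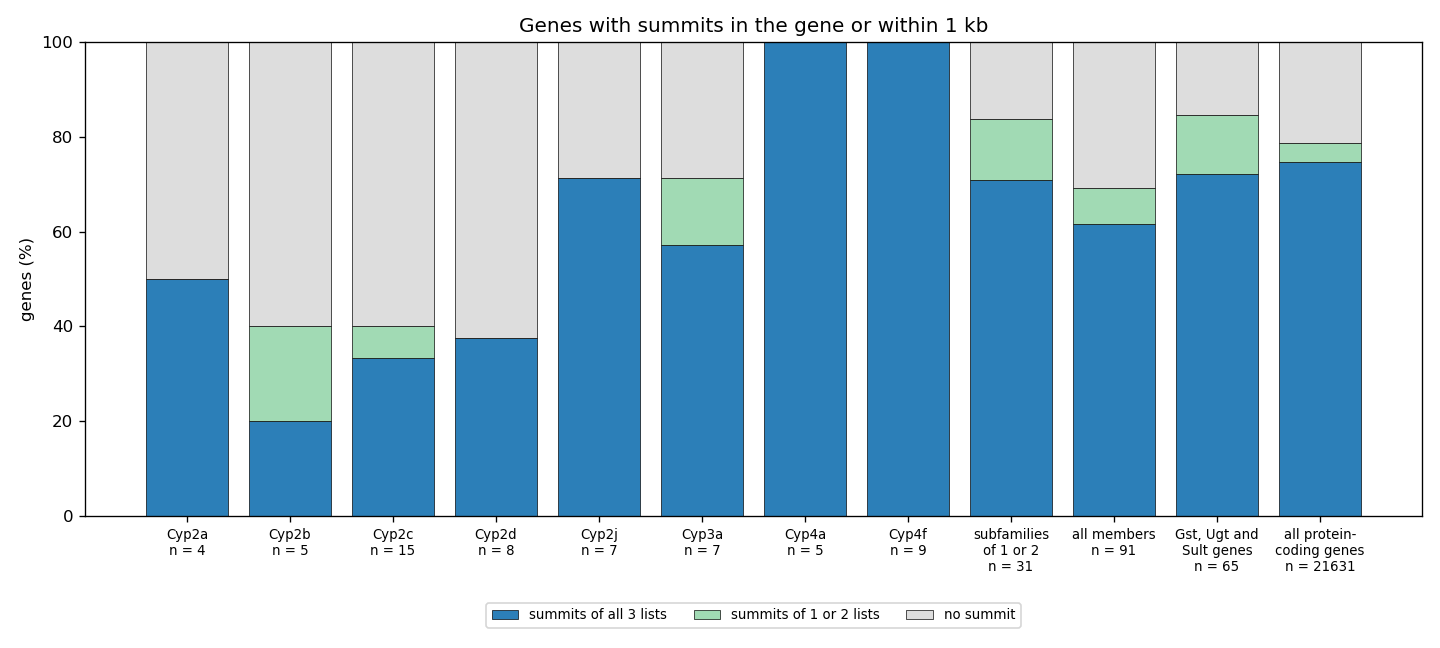
Percent of genes with summits of all 3 lists, of 1 or 2 lists or of none, in the gene or within 1 kb, for the 8 subfamilies with at least 3 members, the 31 members of smaller subfamilies, all 91 members, 65 transferase genes and all 21631 protein-coding genes. Cyp4a and Cyp4f reach 100% for all 3 lists, while Cyp2b, Cyp2c and Cyp2d stay under 40%.

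Genes of steroid hormone synthesis had little or no enrichment. Only Cyp11a1, which cleaves the cholesterol side chain, and Cyp17a1, which makes androgen precursors, were in all 3 lists, 2 of 6. This share of 33.3% compares with 74.7% of all genes. Folds were 5.32, 3.22 and 5.56 at Cyp11a1, with summits 13737, 11238 and 11265 bp from the 5′ end. At Cyp17a1 they were 2.40, 2.62 and 3.56. There the Mta2 and Mbd3 summits lay outside the end of higher coordinate and the Zbtb7a summit outside the other end. Cyp19a1, the aromatase, had a single Zbtb7a summit of fold 3.67. Cyp11b1, Cyp11b2 and Cyp21a1, which complete corticoid synthesis in the adrenal gland, had none. Among all genes with a Mta2 summit, Cyp17a1 ranked at percentile 0.422 and Cyp11a1 at 9.07.

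Of 6 members of bile acid and sterol metabolism, 4 (66.7%) were in all 3 lists, against 74.7% of all genes. Cyp46a1, a cholesterol hydroxylase best known from brain, had folds of 19.95, 16.1 and 19.7. Cyp27a1, a mitochondrial sterol hydroxylase, had 18.4, 16.5 and 17.4. Cyp39a1, an oxysterol hydroxylase, had 13.4, 15.6 and 10.0. Cyp7b1, which also hydroxylates oxysterols, had 8.67, 8.62 and 6.54 over a gene of 172 kb. Cyp7a1, rate-limiting for bile acid synthesis, had no summit. Cyp8b1, which sets the share of cholic acid, had a Mta2 summit of 4.77 and a Mbd3 summit of 4.59, 41 and 47 bp upstream of its start, and none of Zbtb7a.

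The 3 Cyp26 genes encode the enzymes that break down retinoic acid. Cyp26b1 had folds of 23.5 (Mta2), 15.3 (Mbd3) and 13.8 (Zbtb7a), and Cyp26a1 had 21.4, 10.1 and 7.56. At both genes the Mta2 peak was wide. At Cyp26a1 it spanned 4364 bp (chr19:37695327-37699690), while the Mbd3 and Zbtb7a peaks of highest fold spanned 1289 and 467 bp. At Cyp26b1 the widths were 3157, 1235 and 579 bp, but not all at one site. The Mta2 and Mbd3 summits lay 10354 and 10355 bp from the 5′ end, the Zbtb7a summit 2731 bp. Cyp26a1 ranked at percentile 66.3 of genes with a Mta2 summit but at 27.6 for Mbd3 and 19.04 for Zbtb7a. Cyp26c1, next to Cyp26a1, had 1 Mta2 summit of fold 3.55 and none of the other factors.

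Cyp2r1, a vitamin D hydroxylase, had folds of 9.66, 8.98 and 10.3 at its start. Among genes without an assigned role here, Cyp20a1, an enzyme of unknown substrate, had 25.1, 18.8 and 22.7, with summits 28 bp downstream and 7 and 17 bp upstream of its start. Cyp2ab1 had none. The 31 members of subfamilies with 1 or 2 genes had all 3 factors in 22 cases (71.0%) and none in 5. The 60 members of larger subfamilies had all 3 in 34 cases (56.7%) and none in 23 (38.3%). Over all genes 74.7% had all 3 and 21.2% had none.

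The 7 members in 1 or 2 lists all had low folds, from 2.61 for Mta2 at Cyp2g1, an olfactory enzyme, to 4.77 at Cyp8b1. Cyp26c1, Cyp2c40 and Cyp2g1 were in the Mta2 list alone, Cyp3a11 in that of Mbd3 and Cyp19a1 in that of Zbtb7a. Cyp2b19, a skin epoxygenase, and Cyp8b1 were in those of Mta2 and Mbd3, with 3.57 and 2.78 at Cyp2b19. Each fold ranked at percentile 8.22 or lower of all genes with a summit of that factor. At such low folds a missing summit is not shown to differ from a present one.

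Members that stand at most 200 kb from the next formed 8 clusters of at least 3, with 57 members in all. Of these, 32 (56.1%) were in all 3 lists and 21 (36.8%) in none. For the 34 members outside clusters the counts were 24 (70.6%) and 7 (20.6%). This split depends on the rule. Cyp4f14 starts at chr17:32903357, just over 200 kb past the end of the Cyp4f cluster (32703352), and it and Cyp4f13 count as outside. So do Cyp4a29, Cyp3a16 and Cyp3a57. Between these and the clusters lie P450 genes with a letter after the last number, which are no members. The shares over all genes were 74.7% and 21.2%. The density of Mta2 summits from the first to the last gene of a cluster, intergenic sequence included, ranged from 1.19 per 100 kb in the Cyp2c cluster of chromosome 19 to 14.2 in the Cyp4a and Cyp4b1 cluster of chromosome 4. The whole genome span covered by peaks had 5.83. Between these lay the Cyp2d cluster (9.91), the chromosome 7 cluster from Cyp2s1 to Cyp2a4 (6.44), Cyp4f (5.59), the other chromosome 7 cluster, from Cyp2b23 to Cyp2t4 (4.05), Cyp2j (4.02) and Cyp3a (3.52). The order at the extremes was the same for the other factors, with 1.101 and 13.6 for Mbd3 and 1.27 and 14.2 for Zbtb7a in the Cyp2c and the Cyp4a and Cyp4b1 clusters.

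In 6 of the 8 clusters the highest Mta2 fold lay between members and not at one. The Cyp2d cluster (chr15:82370527-82794452, 424 kb) had 42 Mta2 summits, of which 36 were between P450 genes. Its strongest peak (Mta2, chr15:82542230-82546227) had a fold of 70.6, with 68.0 for Mbd3 and 78.7 for Zbtb7a, and was number 32 of the whole Mta2 list. It lay in the pseudogene Gm28023, 10234 bp from Cyp2d12, which had no summit itself. The next, in the pseudogene Gm27825, had folds of 43.8, 42.7 and 46.7. These peaks exceed the highest fold at any member in each list.

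The Cyp2c cluster, 1180 kb long with 14 members, had 14 Mta2, 13 Mbd3 and 15 Zbtb7a summits. Its strongest peak (Mta2, chr19:39935144-39935976) had folds of 41.9, 40.8 and 44.0 and lay within the pseudogene Cyp2c71-ps, 48830 bp from the nearest member, Cyp2c69. The cluster with the fewest summits per 100 kb thus held a peak above any at a member gene. In the cluster from Cyp2b23 to Cyp2t4 the strongest peak (Mta2, chr7:26783027-26783857) had 37.7, 40.02 and 37.2, 10810 bp from Cyp2b19. In the Cyp4a and Cyp4b1 cluster a peak 7981 bp from Cyp4a31 (Mta2, chr4:115555306-115556063) had 30.0, 26.2 and 17.2. In the Cyp3a cluster a peak 32166 bp from Cyp3a11 had 20.4, 21.95 and 14.8, and in the cluster from Cyp2s1 to Cyp2a4 a peak 8705 bp from Cyp2s1 had 25.4, 20.8 and 22.02. The Cyp2j and Cyp4f clusters had their highest folds at the members Cyp2j11 and Cyp4f39. Cyp4f13 and Cyp4f14, with higher Mta2 folds of 15.3 and 14.5, fall outside the Cyp4f cluster. Which gene, if any, a peak between members acts on was not tested.

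**Figure D3:**
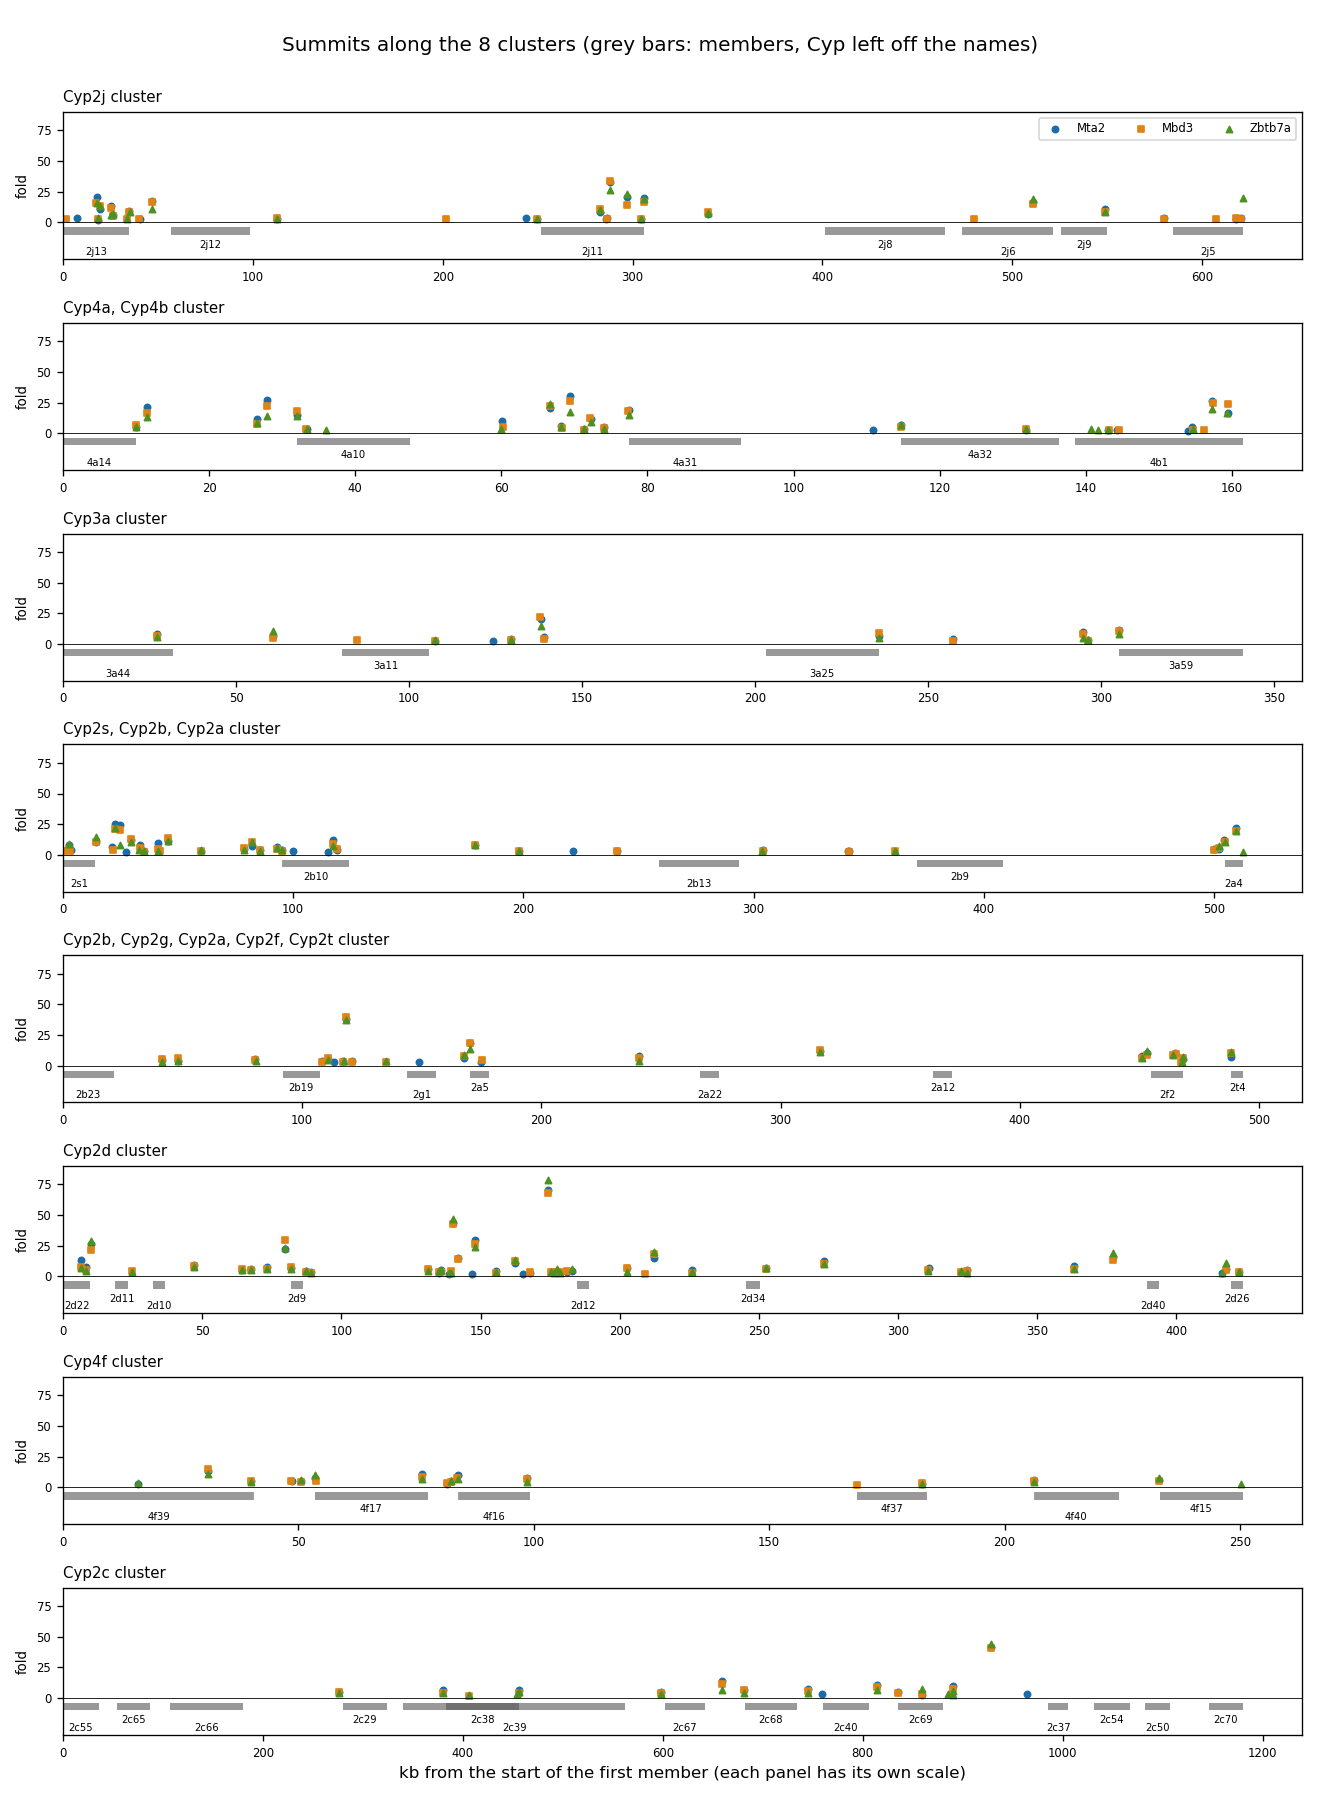
Maps of the 8 clusters, with distance from the first member's start in kb on the horizontal axis and peak fold on the vertical axis; bars below the line mark P450 genes, and points mark summits of the 3 factors. The summit of fold 78.7 (Zbtb7a) in the Cyp2d cluster and those of 44.0 (Zbtb7a) and less in the Cyp2c cluster stand between genes.

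The 28 members in no list were not all far from peaks. The nearest Mta2 summit was 16.8 kb away at the median, from 1.25 kb at Cyp11b2 to 130 kb at Cyp2c65, and 10 of the 28 had one within 10 kb. For Mbd3 and Zbtb7a the medians were 13.3 and 17.3 kb, with 12 and 11 within 10 kb. These distances were not computed for other genes in no list, so the members are not shown to be nearer or farther than those. Cyp2d34 had a Mta2 summit 2.04 kb away (fold 6.57) and Cyp2j12 one of fold 17.1 at 9.78 kb. Cyp7a1 was 43.8 kb from the nearest. For the 5 Cyp2d genes the nearest Mta2 summit was 1.67 to 12.1 kb away. For the 9 Cyp2c genes the distance ran from 3.46 kb at Cyp2c67 and 4.08 kb at Cyp2c29, inside the Cyp2d range, to 107 kb at Cyp2c50 and 130 kb at Cyp2c65.

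A RefSeq promoter entry, with strand, was found for 72 of the 91 members. A Mta2 summit lay within 1 kb of a start in 33 of the 72 (45.8%), against 67.8% of all protein-coding genes with an entry. The counts were 33 for Mbd3 (45.8%; all genes 66.5%) and 32 for Zbtb7a (44.4%; all genes 66.5%). The summits sat mostly upstream, in 27 of 33, 27 of 33 and 30 of 32 members, at a median of 94, 82 and 94 bp before the start. Over all genes the medians were 34, 28 and 26 bp upstream, and 64.5%, 62.4% and 59.9% were upstream.

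**Figure D4:**
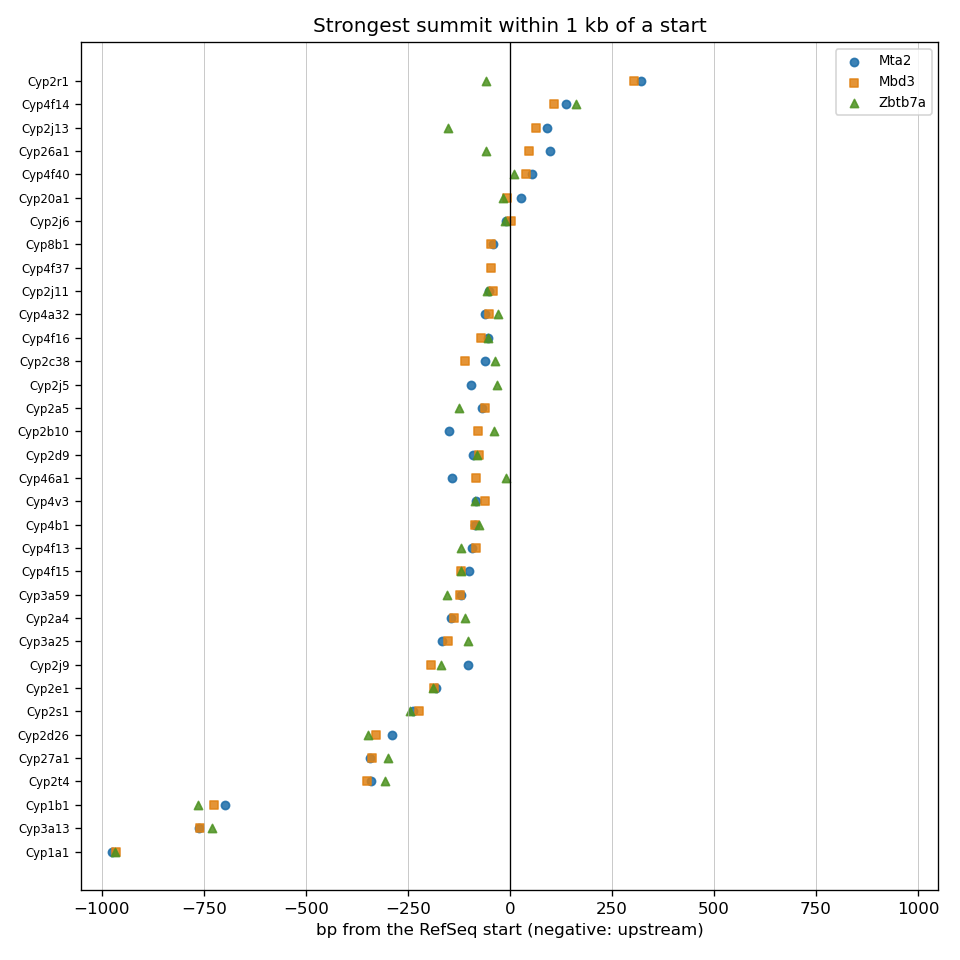
Distance in bp from the RefSeq start to the strongest summit within 1 kb, 1 row per member, ordered by position; circles, squares and triangles stand for Mta2, Mbd3 and Zbtb7a, and negative values are upstream. Most symbols lie just left of the start, with median distances of -94, -82 and -94 bp, while Cyp1a1, Cyp3a13 and Cyp1b1 lie far upstream.

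P450 promoters hold few CpG, and the share of genes with a summit differed with their number. In the window from 250 bases before to 50 after the start, the median was 3 CpG in members and 14 in all genes, and 9 of 72 members (12.5%) had at least 10, against 57.9% of all genes. Of those 9 members, 8 (88.9%) had a Mta2, a Mbd3 and a Zbtb7a summit near the start, against 93.4%, 92.3% and 92.5% of all genes in that class. The exception was Cyp4f39, with 11 CpG. Of the 63 members with fewer, 25 (39.7%) had a Mta2 summit, 25 (39.7%) a Mbd3 summit and 24 (38.1%) a Zbtb7a summit, against 32.5%, 31.1% and 30.7% of all genes with so few. The part of CpG number in the lower share of members with a summit was not tested, and the class of at least 10 CpG rests on 9 members. Median folds near the start were 15.9 (Mta2), 10.5 (Mbd3) and 15.1 (Zbtb7a) in members with at least 10 CpG and 10.1, 8.66 and 9.48 in those with fewer. Over all genes the medians in these 2 classes were 16.5 and 9.65 for Mta2, 15.1 and 8.76 for Mbd3, and 16.3 and 8.74 for Zbtb7a. Single members departed from this order, as Cyp2d26, with 1 CpG, had the highest Mta2 fold at a start (26.6), and Cyp20a1, with 20, had 25.1. Cyp46a1 had the most, 31 CpG, with a Mta2 fold of 19.95.

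**Figure D5:**
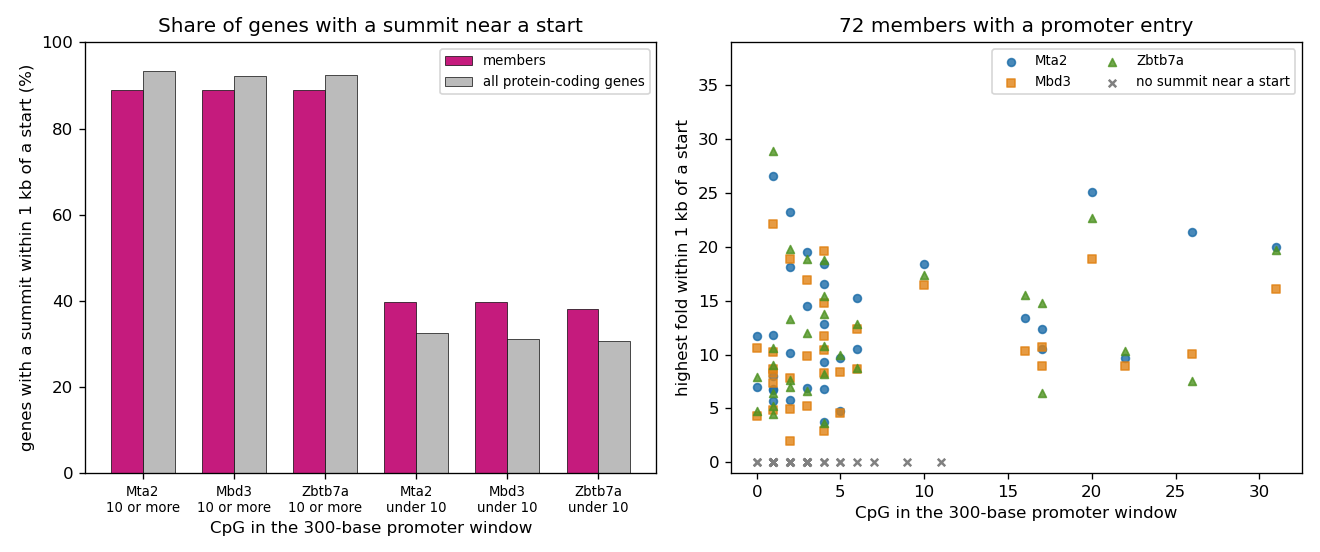
Left, percent of genes with a summit within 1 kb of a start, for promoters with at least 10 CpG and with fewer, in members (magenta) and all protein-coding genes (grey); right, highest fold near a start against the number of CpG for the 72 members, crosses marking members without such a summit. Members with few CpG include both the highest folds, such as 28.9 for Zbtb7a at Cyp2d26, and nearly all crosses.

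Short motifs were searched on both strands of the same windows. TATAAA occurred in 29 of 72 members (40.3%) and 13.4% of all promoters. In the printed sequences it lies 31 to 26 bases before the Cyp2e1 start, 29 to 24 bases before that of Cyp2a5, 28 to 23 bases before that of Cyp2a4 and, on the opposite strand, before that of Cyp2d9. It also occurs in Cyp2d11, which had no summit, 16 to 11 bases before the start and, on the opposite strand, 43 to 38. It was present in 33.3% of members with a Mta2 summit near the start and in 46.2% of those without. Over all genes these shares were 7.30% and 26.3%. GGGCGG, a core of GC boxes, occurred in 23.6% of members and 46.9% of all promoters, and GCGTG, the core bound by the dioxin receptor Ahr, in 22.2% and 38.9%. AGGTCA, the core element bound by many nuclear receptors, occurred in 27.8% and 14.4%. Its direct repeat with 1 base between, which also counts as a match of the single element, occurred in 0 of the 72 and in 0.0521% of all. In members with and without a Mta2 summit near the start, GGGCGG occurred in 36.4% and 12.8% and GCGTG in 33.3% and 12.8%. AGGTCA occurred in 18.2% and 35.9% of them. Over all genes the shares were 63.1% and 12.8%, 50.4% and 14.8%, and 12.2% and 18.9%. The motifs are matches of letters, not binding sites.

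Near copies of a promoter were compared by their summits within 1 kb of the start. In 5 of the 6 pairs of members whose windows are at least 90% identical, both genes had the same number of factors there. Cyp2a4 and Cyp2a5 (97.7%) and Cyp3a25 and Cyp3a59 (95.7%) each had all 3. Cyp2b13 and Cyp2b9 (99.3%), Cyp3a16 and Cyp3a44 (93.4%) and Cyp2c68 and Cyp2c69 (91.1%) had none near the start, since the summits of Cyp3a44, Cyp2c68 and Cyp2c69 lay elsewhere in these genes or at their other end. The remaining pair was Cyp3a57, with none, and Cyp3a59, with all 3 (90.8%). Of these 11 members 4 had all 3 factors near the start (36.4%), and of the other 61 with an entry 27 (44.3%). Just under the limit of 90%, Cyp3a25, with all 3 near the start, and Cyp3a57, with none, share 89.7% of the window. Cyp2d9, with all 3, shares 84.5% with Cyp2d11 and 83.3% with Cyp2d10, both with none. In Cyp2c37 and Cyp2c50 (86.6%), Cyp2a12 and Cyp2a22 (84.0%) and Cyp2c40 and Cyp2c69 (80.9%) both genes had none. The share of agreeing pairs among less alike windows was not computed, so agreement is not shown to follow identity. The handling of reads that match several copies is not given in the sources used here, so how far it bears on these genes was not tested.

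The 3 lists ranked the P450 genes alike. Over the 56 members in all 3 lists, Spearman's rho of the highest fold was 0.855 for Mta2 and Mbd3, 0.899 for Mta2 and Zbtb7a and 0.835 for Mbd3 and Zbtb7a, as a description, since the lists come from the same tissue and share Input. In 42 of the 56 (75%) the strongest summits of all 3 factors lay within 200 bp of each other. Neither rho nor this share is given here for all genes, so they are not shown to be particular to P450 genes. Of the 150 Mta2 peaks at members, 71.3% overlapped peaks of both other factors, against 70.1% of the Mta2 peaks at all genes. Of the Mbd3 peaks 77.8% did so at members and 79.8% at all genes, and of the Zbtb7a peaks 84.8% and 86.7%. P450 genes did not stand apart in this overlap of peaks.

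Genes that work with P450 enzymes had more and stronger summits than the members. Of all protein-coding genes 74.7% were in all 3 lists and 21.2% in none. Over those with a summit the median highest folds were 16.8, 15.4 and 16.2. All 8 redox partners were in all 3 lists, with a median highest Mta2 fold of 26.5, among them the reductase Por, with 37.7, 45.8 and 55.5. All 8 genes of haem synthesis were in all 3 lists (median Mta2 fold 23.0). So were 13 of 14 receptors and regulators (25.7), among them Ppara with 43.9, 43.4 and 120 and Nr1i2 with 24.7, 26.2 and 26.1. The exception, Nr1i3, had 2.92 for Mta2, 2.67 for Zbtb7a and no Mbd3 summit. Both epoxide hydrolases, Ephx1 and Ephx2, which convert the epoxides made by Cyp2c and Cyp2j enzymes, were in all 3. Of 65 glutathione, glucuronyl and sulfo transferases, other enzymes of drug metabolism, 47 (72.3%) were in all 3 and 10 (15.4%) in none. Their median folds of 17.4, 16.6 and 16.2 were near those of all genes. Transferase genes shared many summits. Summed gene by gene they had 332 Mta2, 276 Mbd3 and 298 Zbtb7a summits, against 158, 140 and 139 different summits in their joined spans. The shares and medians of the 65 genes therefore count some peaks repeatedly, and values without such repeats were not computed. All 8 proximal tubule marker genes, 4 of 6 hepatocyte and 4 of 5 adrenal cortex marker genes were in all 3 lists. A peak is not a measure of expression, so these lists do not check the tissue.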

How the data were processed

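Peaks were measured in 3 immunoprecipitated groups of 2 mice each. MACS2, bedtools, Bowtie2, deepTools and the build mm10 are named in the submitters' processing notes. Which settings were chosen, and how mice and Input were combined, is not given in the sources used here. As deposited by the authors, there is 1 narrowPeak list per factor, whose columns were read by that layout because the lists have no header. Each line holds an interval, a score, a ratio (fold enrichment over background) and a −log10 q value from the authors' peak caller, and the offset of the summit, another number the authors deposited. The fold was used for values, −log10 q for a filter, and the score for nothing. Each list stands for both mice, so no value per mouse, SD, n or test could be had, and a difference in depth between lists cannot be told apart from one in binding. The counts therefore stand beside the same counts over all protein-coding genes, whose percentages are descriptions.

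Summits on autosomes and the X chromosome were placed in genes of RefSeq GRCm38.p6, the assembly that mm10 is made from, with 1 kb on each side. That table gives gene ends without exons or introns. Strand, starts and sequence came from RefSeq promoter entries, found for 72 members; the other 19 have none here, and their ends are named by coordinate. Promoter windows span 250 bases before and 50 after a start. Identity is that of global alignments (match 2, mismatch -1, gap opening -3, extension -0.5). Clusters are at least 3 members, each at most 200 kb from the next. Scripts used Python 3.11.15, pandas 2.3.3, numpy 2.4.6, Biopython 1.88 and matplotlib 3.10.9, and the placing of summits was tested on simulated data. Every list was mapped to its factor.

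The members, roles, gene lists and named genes were chosen with earlier results of these data known. Named are the members with the highest fold per list (10 for Mta2, 5 for each other factor), the highest and the alphabetically first without a summit in each cluster and role, every member in 1 or 2 lists, and P450 genes known from kidney or from a defined role; further members complete their subfamily and were chosen after their values were seen. Alternatives were other windows, stricter peak thresholds, placing by interval, RefSeq starts alone, summits of members alone and other cluster distances.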

Additional observations from a re-analysis of the deposited data

How the results depend on the processing

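Of 87 values computed under alternative settings, 83 stayed within 1.5 times the reported count or within the set tolerance. The share of genes with a summit was lower in members than in all genes, and the share in no list higher, in each of the 5 settings for which all genes were counted; median folds and summits per 100 kb of all genes were not computed under the alternatives. The 4 that moved were the members with a Mta2 summit near an end, 33 when only RefSeq starts counted, and the summits per 100 kb when only peaks with a fold of at least 5 were kept, 3.53 for Mta2, 3.12 for Mbd3 and 2.90 for Zbtb7a. The first of these also leaves out the 19 members without a promoter entry, among them 10 of the 50 with a Mta2 summit near an end. Members in all 3 lists ranged from 43 (fold of at least 5; all genes 66.4%) to 58 (window of 3 kb; all genes 76.6%), and members in none from 23 to 39. After the data were seen, 2 alternatives were added: with P450 genes of other symbol forms the counts were 62 in all 3 lists and 28 in none, and without close copies 49 and 24. No paired analysis was possible because each factor has 1 list for both mice and no column per mouse, and leaving out a mouse was not possible for the same reason. Depth per library was not analysed here, so a peak below the threshold and no peak cannot be told apart.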

Other observations

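The P450 genes whose symbols end in a letter after the number fall outside the rule by which members were chosen, and all 5 were in all 3 lists. Cyp4a12a, a fatty acid hydroxylase known from male mouse kidney, had folds of 15.3 (Mta2), 13.997 (Mbd3) and 17.7 (Zbtb7a), and its copy Cyp4a12b had 11.2, 7.67 and 13.2. Cyp4a30b had 5.49, 5.11 and 4.58. Cyp3a41a and Cyp3a41b had Mta2 folds of 3.96 and 4.67. Cyp51, which acts in cholesterol synthesis, had 26.8, 24.1 and 21.04, and Ptgis and Tbxas1, the P450-related synthases of prostacyclin and thromboxane, were in all 3 lists as well, with Mta2 folds of 17.3 and 32.8.

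Some peaks reached a member or its 1 kb while their summits lay just outside, at Cyp2d9, Cyp2j5 and Cyp2a4. At Cyp2a4 a Mta2 summit of fold 7.09 and a Mbd3 summit of fold 6.75 lay 1001 bp past the gene, 1 bp beyond the limit, while a Zbtb7a summit of fold 8.34 there was within it.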
